A study of Mus musculus with 6 samples.

Results

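In muscle of Tarsl2 knockout mice, 39 interferon-stimulated genes were described among the 53084 genes of a count table. They were chosen by name, with earlier results of these data known, as interferon signalling factors and interferon-induced effectors and GTPases. They comprised transcription factors, IFIT proteins, nucleic acid sensors, the ISG15 system, oligoadenylate synthetases (OAS), guanylate-binding proteins (GBP), immunity-related GTPases (IRG) and other induced proteins. All 39 were found in the table, and 38 had enough counts to be tested. Interferons are secreted signals that cells release after sensing viral nucleic acid or after immune activation. They bind receptors coupled to Jak kinases, and the Stat protein complexes that form then switch on a large set of genes that detect, tag and restrict viruses and intracellular microbes. Many of these genes are read at a low tonic level without infection.

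RNA-seq was performed on muscle of 3 WT (Tarsl2+/+) and 3 KO (Tarsl2-/-) male C57BL/6 mice aged 6 weeks and kept on standard chow, with 1 library per mouse. The KO mice carry a CRISPR/Cas9 deletion of a fragment with exon 3 of Tarsl2, which encodes a threonyl-tRNA synthetase-like protein, in all cells. The line was bred from edited C57BL/6J zygotes crossed to C57BL/6J mice, per the study methods, the WT mice carry the intact gene, and the labels do not name the muscle. The comparison asks how muscle expression differs between these genotypes. Values below are given in the order WT 583, WT 584 and WT 595, then KO 588, KO 589 and KO 591, where the number is that of the sample title. The title of KO 589 has the prefix KOT1 and those of KO 588 and KO 591 have KO1. The meaning of this difference is not given. P-values below test the genotype difference against the spread between these 3 libraries per genotype. The edgeR test also draws on the spread of other genes.

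Each library held between 16176591 and 20123767 counts. Tarsl2 itself was at 26.7, 32.1 and 24.4 CPM in WT and 2.23, 1.87 and 1.80 CPM in KO muscle (CPM, counts relative to the TMM-scaled library size), a log2 fold change of -3.81 (adjusted p = 6.45e-07 by edgeR). Although the sample records mention a retinal extraction, 10 retinal markers had at most 9 counts in any library, while muscle markers such as Ckm and Acta1 had at least 93943 counts. The library WT 583 stood apart in lymphocyte and neutrophil markers. Its summed level over 10 T and NK cell markers was 22.04 CPM against 3.03 and 5.88 CPM in the other WT libraries, and over 10 neutrophil markers 70.5 against 2.497 and 17.3 CPM. The counts and the median below are therefore also given without this library.

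Promoters of the interferon-stimulated genes that passed the test are shown first, because interferon factors are known to act through short elements there. An interferon-stimulated response element, read by a complex that holds Stat2 and Irf9 and by other Irf proteins, was searched as GAAA, any pair of bases and GAAA again, on either strand. A gamma-activated site, read by paired Stat proteins, was searched as TTCNNNGAA, which reads the same on both strands. Both were searched in the 250 bases before each RefSeq gene start on GRCm38.p6. Of the 39 genes, 28 had an entry, and 5 of these were among the 8 that passed the test of genotype. For Irf7 the last 57 bases lie in an annotated exon and are left out. The stretches are written 5′ to 3′ on the gene's strand, with matches to either element in capitals. They are chr12:26456453-26456702 (minus strand) for Rsad2, chr7:141266482-141266674 (minus) for Irf7, chr5:120907526-120907775 (minus) for Oas1a, chr8:71537473-71537722 (minus) for Bst2 and chr11:58214727-58214976 (plus) for Irgm2.
Rsad2: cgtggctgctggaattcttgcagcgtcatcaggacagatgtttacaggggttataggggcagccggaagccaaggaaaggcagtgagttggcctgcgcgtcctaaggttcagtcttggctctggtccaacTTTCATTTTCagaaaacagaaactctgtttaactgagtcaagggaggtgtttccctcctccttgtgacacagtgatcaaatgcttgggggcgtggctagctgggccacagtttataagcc
Irf7: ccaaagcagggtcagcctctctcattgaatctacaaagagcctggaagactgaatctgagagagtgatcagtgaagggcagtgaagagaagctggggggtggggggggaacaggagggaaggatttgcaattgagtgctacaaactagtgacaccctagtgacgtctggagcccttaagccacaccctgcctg
Oas1a: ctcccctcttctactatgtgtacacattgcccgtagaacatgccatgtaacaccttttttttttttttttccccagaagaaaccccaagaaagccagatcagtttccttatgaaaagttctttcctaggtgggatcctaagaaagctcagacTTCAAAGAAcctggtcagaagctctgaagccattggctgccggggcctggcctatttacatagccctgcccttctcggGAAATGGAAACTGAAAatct
Bst2: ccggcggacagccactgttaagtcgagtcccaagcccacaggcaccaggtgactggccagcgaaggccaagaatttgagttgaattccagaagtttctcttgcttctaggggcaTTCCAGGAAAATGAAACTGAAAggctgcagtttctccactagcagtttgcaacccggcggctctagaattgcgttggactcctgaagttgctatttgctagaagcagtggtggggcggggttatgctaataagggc
Irgm2: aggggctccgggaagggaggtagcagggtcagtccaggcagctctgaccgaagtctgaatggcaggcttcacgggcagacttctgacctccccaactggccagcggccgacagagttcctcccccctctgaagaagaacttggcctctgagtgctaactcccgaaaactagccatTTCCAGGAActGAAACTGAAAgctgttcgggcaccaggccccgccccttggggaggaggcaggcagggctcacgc
Rsad2 held 1 response element, which begins 120 bases before the start. In Oas1a 2 overlapping response elements begin 20 and 14 bases before the start, and a gamma-activated site begins at 98 bases. In Bst2 a gamma-activated site at 136 bases runs into 2 overlapping response elements at 130 and 124 bases. In Irgm2 a gamma-activated site at 75 bases and a response element at 64 bases lie close together. Irf7 had neither set of letters in its window. Across the 28 genes with an entry, 17 held a response element (60.7%) and 8 a gamma-activated site (28.6%). Among all 27025 genes with an entry, the shares were 3.46% and 8.13%, and among the 10622 of these matched by name to a tested gene they were 3.35% and 6.95%. A match describes the sequence and does not show that a factor binds there.

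The interferon-stimulated genes that passed the test of genotype were all lower in KO muscle. The list was chosen with earlier results of these data known, so the shares of all genes beside it are descriptive only. Of the 38 tested, 8 were lower in KO muscle (Rsad2, Irf7, Usp18, Iigp1, Irgm2, Zbp1, Oas1a and Bst2), against 1.37% of all 15075 tested genes called lower by the quasi-likelihood test of edgeR (threshold of 0.05 on the adjusted p). In either direction 2.27% of all genes were called. By edgeR none was higher, against 0.896% of all tested genes, none was higher by DESeq2 or limma-voom, and 0 had an unadjusted p under 0.05 in that direction, against 9.57% of all genes. In the lower direction 29 of the 38 had an unadjusted p under 0.05, against 10.2% of all genes. The other 30 did not pass the test, although 29 of these had a log2 fold change (KO over WT) below 0, as had 37 of the 38 in all, against 49.6% of all genes. The median log2 fold change over the 38 was -0.57, and over all tested genes it was 0.00253. By DESeq2, 12 genes were called lower (2.71% of all genes), and by limma-voom 7 (1.23%), among which were 8 and 7 of the 8. With RLE scaling 8 were called (1.38%), with upper-quartile scaling 9 (1.59%), and with no filter on low counts 25 of 39 (3.23%). Of 10 macrophage markers 5 also fell, and their summed level was 805 to 871 CPM in WT and 524 to 643 CPM in KO muscle. In bulk muscle, fewer cells of a type and less RNA per cell cannot be told apart. For 3 of the 38, Mx1, Mx2 and Ifi44, a KO library had fewer than 10 counts, so that they entered the test through the WT libraries and the remaining KO libraries. Among the 35 genes with at least 10 counts in every library, 9 were called lower (1.52% of all genes under this filter) and the median was -0.57. The remaining gene, Oas3, had 9, 10 and 9 counts in WT and 0, 4 and 3 in KO muscle and was not tested.

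**Figure D1:**
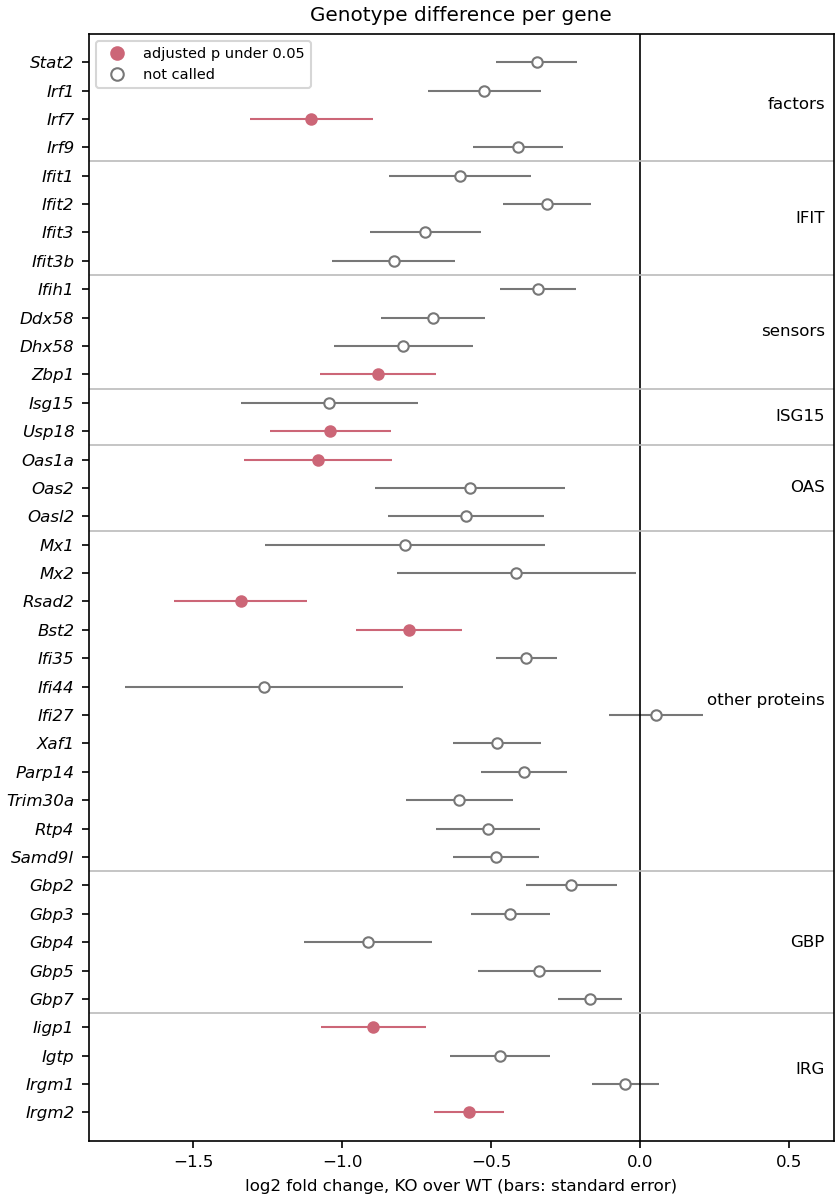
Log2 fold change (KO over WT) of each of the 38 tested interferon-stimulated genes, grouped by role, with the standard error as a bar; filled points passed the edgeR test. The points lie between -1.34 for Rsad2 and 0.05 for Ifi27, and 37 of 38 lie below 0.

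Which genes passed depended on single mice. With WT 583, WT 595 or KO 589 left out, 1 gene was called, Rsad2 in each case, where 0.324%, 0.364% and 0.492% of all genes were called lower. Without KO 588 none was called by edgeR (0.628% of all genes), although 20 had an unadjusted p under 0.05 and a log2 fold change below 0. Without WT 584 or KO 591, 9 were called, of which 7 and 5 were among the 8 (2.49% and 0.636% of all genes). The median log2 fold change was -0.62 without WT 583, -0.58 without WT 584, -0.43 without WT 595, -0.43 without KO 588, -0.50 without KO 589 and -0.79 without KO 591. Rsad2 was called in 5 of these 6 fits, Irf7, Iigp1 and Bst2 in 2, and Usp18, Oas1a, Irgm2 and Zbp1 in 1.

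The libraries were then compared one by one. In 26 of the 38 tested genes, every KO library lay below every WT library, against 12.0% of all tested genes. For each of these the exact two-sided permutation test gave p = 0.1, which is as small as groups of 3 and 3 can give. In the other 12 genes (Irf9, Ifit1, Ifit2, Oas2, Oasl2, Mx1, Mx2, Ifi27, Rtp4, Gbp2, Gbp5 and Irgm1) the genotypes overlapped.

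The 3 KO mice were not alike. KO 588 lay below all 3 WT libraries in 37 of the 38 genes, KO 589 in 35 and KO 591 in 26, whereas the same held for 28.1%, 31.1% and 29.7% of all tested genes. The median distance of the 38 genes from the WT mean was -0.75 log2 units in KO 588, -0.59 in KO 589 and -0.30 in KO 591, while over all tested genes it lay between -0.00092 and 0.00865 in these libraries. KO 591 had the highest level among the KO libraries in 32 of the 38 genes, against 32.4% of all tested genes. Among the WT libraries, WT 595 was the highest in 27 genes, WT 583 in 6 and WT 584 in 5, where the shares of all tested genes were 34.6%, 30% and 35.3%. KO 591 therefore stood closest to WT, and WT 595 lay farthest above the KO libraries. Summed over the 39 genes, the level was 613, 635 and 689 CPM in WT and 431, 472 and 538 CPM in KO muscle.

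**Figure D2:**
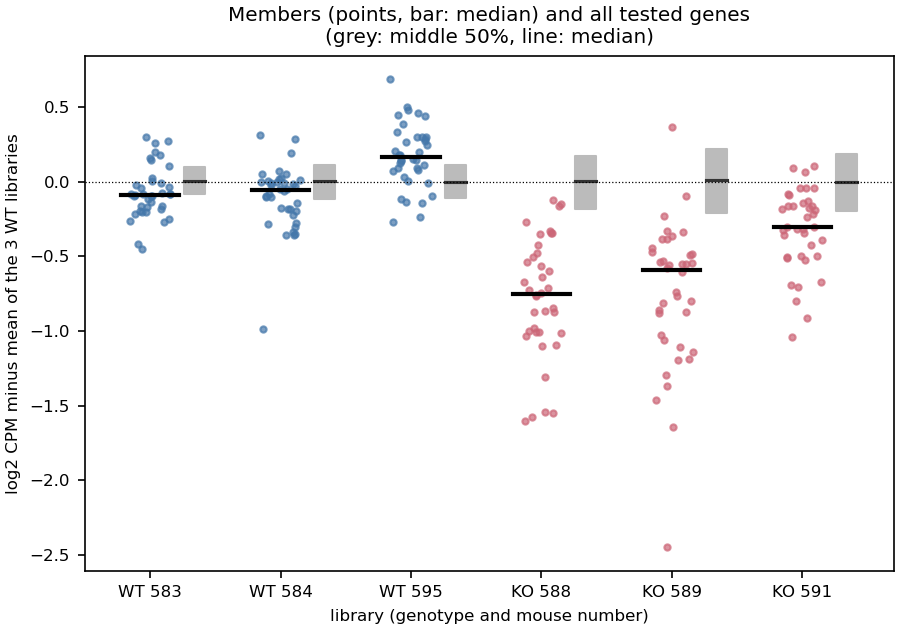
Log2 CPM of the 38 tested interferon-stimulated genes minus the mean of the 3 WT libraries, per library (points, with the median as a black bar), beside the median and the middle 50% of all 15075 tested genes (grey). The medians of the points are -0.75, -0.59 and -0.30 in KO 588, KO 589 and KO 591, while the grey medians stay near 0; the WT libraries enter the mean they are compared with.

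**Figure D3:**
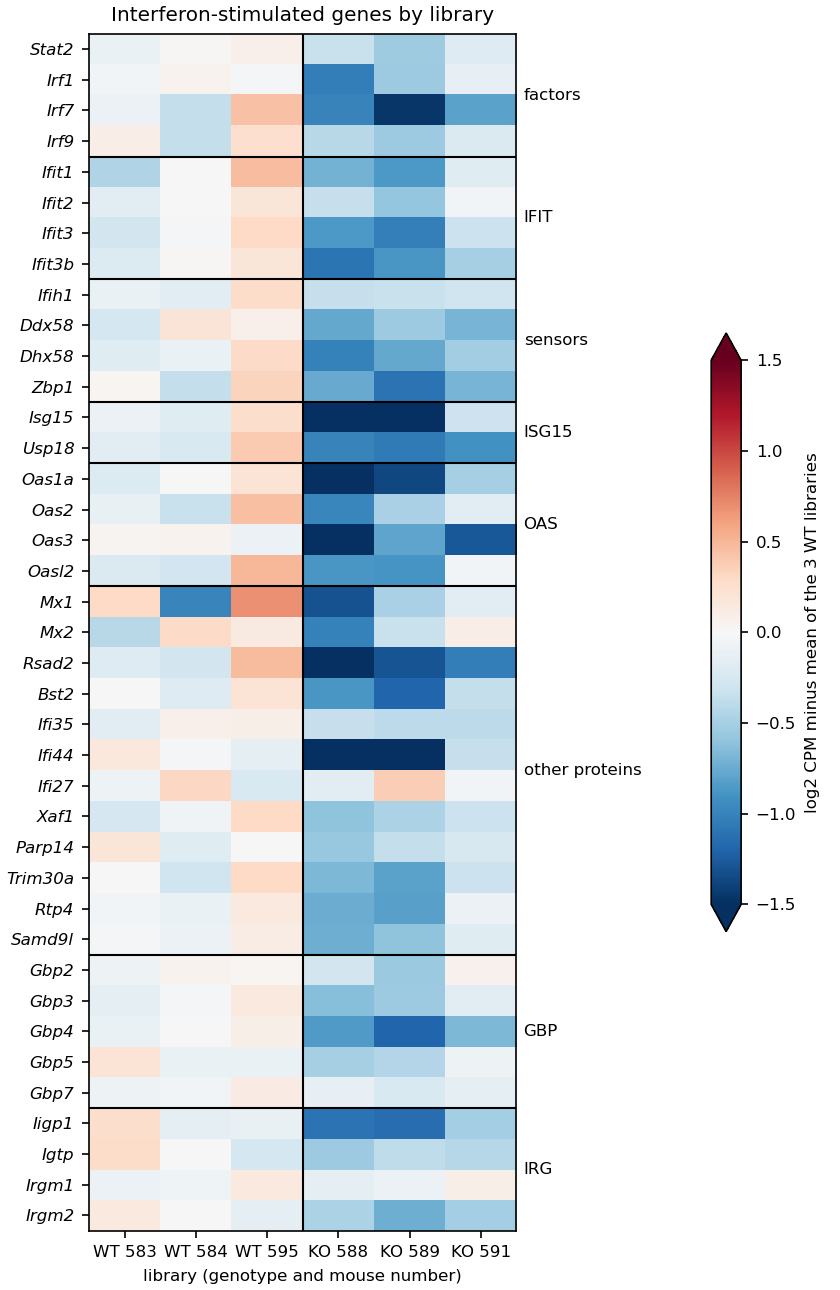
Heat map of log2 CPM minus the mean of the 3 WT libraries for the 39 interferon-stimulated genes (rows, grouped by role) in the 6 libraries (columns); colours end at 1.5 log2 units in either direction. KO 588 and KO 589 are blue in nearly every row and KO 591 is paler. Ifi27, Irgm1, Mx2 and Gbp2 show no common direction across the KO libraries.

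The transcription factors comprised 1 gene that fell and 3 that did not pass the test. Irf7, which amplifies interferon production, was at 23.5, 19.5 and 34.0 CPM in WT and 12.4, 8.98 and 14.3 CPM in KO muscle. The groups did not overlap, and KO 589 was the lowest. This was 25.7 ± 7.47 against 11.9 ± 2.69 CPM (SD, n = 3 each), a log2 fold change of -1.10 (standard error, SE, 0.21, adjusted p = 0.0214 by the edgeR test). Irf7 lies on chromosome 7 of GRCm38 (141262706 to 141266481, minus strand) and overlaps Phrf1 on the opposite strand. Irf1, a factor strongly induced by interferon gamma, was at 11.3, 12.1 and 11.5 CPM in WT and 5.63, 7.92 and 10.6 CPM in KO muscle. KO 591 lay just under the WT libraries and KO 588 was the lowest, and the log2 fold change was -0.52 (adjusted p = 0.158). Stat2 and Irf9, partners in the complex that reads the response element, differed by -0.35 and -0.41 on the log2 scale, with adjusted p-values of 0.188 and 0.166. Stat2 was at 8.48, 9.19 and 9.55 CPM in WT and 7.19, 6.24 and 7.92 CPM in KO muscle, so that the genotypes did not overlap. For Irf9, which was at 23.3, 16.9 and 25.8 CPM in WT and 16.2, 14.8 and 18.7 CPM in KO muscle, WT 584 lay below KO 591. Without WT 584, Irf9 passed by edgeR (adjusted p = 0.0333).

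None of the 4 IFIT genes, whose proteins bind foreign RNA and hold back its translation, passed in the main edgeR fit, although 3 had an unadjusted p under 0.05. That fit used all libraries, TMM scaling and the filter on low counts. With no filter on low counts, Ifit1, Ifit3 and Ifit3b passed by edgeR (adjusted p = 0.00607, 4.09e-07 and 0.0032). In that fit 3.23% of all genes were called lower, against 1.37% in the main fit. The log2 fold change of Ifit3 was nearly the same in both, -0.723 and -0.721. By DESeq2, Ifit3 (adjusted p = 0.00597) and Ifit3b (adjusted p = 0.0322) were called lower, and by limma-voom none of the 4 was. Ifit3 was at 20.2, 23.9 and 30.0 CPM in WT and 13.3, 11.9 and 19.5 CPM in KO muscle, and the log2 fold change was -0.72 (SE 0.19, adjusted p = 0.0678). Its neighbour Ifit3b on chromosome 19 was at 4.44, 5.21 and 5.83 CPM in WT and 2.34, 2.74 and 3.60 CPM in KO muscle, with a log2 fold change of -0.83 (SE 0.21, adjusted p = 0.0638). In both genes every KO library lay below every WT library, and KO 591 was the highest KO library. The pair shares sequence, since 41.1% of the distinct stretches of 75 bases in Ifit3 transcripts also occur in Ifit3b, and the split of reads between them is uncertain. Without KO 591, Ifit3 passed by edgeR as well (adjusted p = 0.0332). Ifit1 and Ifit2 overlapped between genotypes, with log2 fold changes of -0.60 and -0.31 (adjusted p = 0.188 and 0.267). Neither passed in a fit that left out a library.

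Of the 4 nucleic acid sensors, 1 fell and 3 did not pass in the main edgeR fit. In all 4 every KO library lay below every WT library, against 12.0% of all tested genes. Zbp1, which senses left-handed nucleic acid and can trigger cell death, was at 8.59, 6.59 and 10.7 CPM in WT and 4.96, 3.87 and 5.15 CPM in KO muscle. Its log2 fold change was -0.88 (SE 0.20, adjusted p = 0.0431 by edgeR), from 8.61 ± 2.03 to 4.66 ± 0.693 CPM (SD, n = 3 each). By limma-voom its adjusted p was 0.0575. The gene lies on chromosome 2 (173206612 to 173218923, minus strand). The RNA helicases Ddx58, known as RIG-I, Ifih1, known as MDA5, and Dhx58, their regulator, differed less relative to their errors. Ddx58 was at 5.03, 6.91 and 6.35 CPM in WT and 3.51, 4.12 and 3.69 CPM in KO muscle (log2 fold change -0.70, adjusted p = 0.0659 by edgeR and 0.0486 by DESeq2). Dhx58 was at 3.04, 3.24 and 4.25 CPM in WT and 1.67, 1.996 and 2.38 CPM in KO muscle (log2 fold change -0.79, adjusted p = 0.0951). Ifih1 was at 15.7, 14.8 and 20.2 CPM in WT and 13.2, 13.3 and 13.6 CPM in KO muscle (log2 fold change -0.34, adjusted p = 0.167). The 3 KO libraries were close to each other for Ddx58 and Ifih1.

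Isg15 and Usp18 form a pair: Isg15 encodes a ubiquitin-like tag put on proteins during the interferon response, and Usp18 encodes the protease that removes it and also damps the type I interferon receptor. Usp18 was at 5.55, 5.31 and 8.19 CPM in WT and 3.07, 2.93 and 3.26 CPM in KO muscle. The KO libraries were close to each other, and the means were 6.35 ± 1.60 and 3.08 ± 0.163 CPM (SD, n = 3 each). The log2 fold change was -1.04 (SE 0.20, adjusted p = 0.0254 by edgeR), for a gene on chromosome 6 (121245906 to 121270917, plus strand). Isg15 had nearly the same log2 fold change, -1.04, but a larger standard error of 0.30 and an adjusted p of 0.0872. It was at 14.7, 13.8 and 18.8 CPM in WT and 5.07, 4.93 and 12.6 CPM in KO muscle. KO 591 lay next to the WT libraries, whereas KO 588 and KO 589 were far below. Without KO 591, the log2 fold change of Isg15 was -1.66 and it passed (adjusted p = 0.00461).

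Among the oligoadenylate synthetases, which make short adenylate chains that switch on RNase L, Oas1a fell. It was at 7.66, 8.87 and 10.2 CPM in WT and 2.90, 3.37 and 6.22 CPM in KO muscle, with KO 591 again between the other KO libraries and WT. The means were 8.90 ± 1.26 and 4.16 ± 1.80 CPM (SD, n = 3 each), and the log2 fold change was -1.08 (SE 0.25, adjusted p = 0.0491 by edgeR). It lies on chromosome 5 (120896256 to 120907521, minus strand). Oas1a shares 47.6% of its distinct stretches of 75 bases with Oas1g, so that its reads could have been split. For Oas2 and Oasl2 the genotypes overlapped, with log2 fold changes of -0.57 and -0.58 (adjusted p = 0.353 and 0.247).

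Of the 12 other antiviral and interferon-induced proteins, 2 fell, Rsad2 and Bst2. Rsad2 encodes viperin, an enzyme whose product stops viral RNA synthesis, and had the smallest adjusted p of all 38 genes. It was at 8.54, 8.08 and 13.7 CPM in WT and 3.29, 3.93 and 4.71 CPM in KO muscle. The lowest WT library was well above the highest KO library, and the means were 10.1 ± 3.12 and 3.98 ± 0.714 CPM (SD, n = 3 each). The log2 fold change was -1.34 (SE 0.22, adjusted p = 0.0142 by edgeR), and across the fits that left out a library it lay between -1.49 and -1.06, with an adjusted p of 0.0511 without KO 588. The gene lies on chromosome 12 (26442746 to 26456452, minus strand). Bst2, which encodes tetherin, a membrane protein that holds virus particles on the cell surface, was at 77.3, 67.7 and 89.3 CPM in WT and 42.3, 33.9 and 60.5 CPM in KO muscle. That is 78.1 ± 10.9 against 45.5 ± 13.6 CPM (SD, n = 3 each), a log2 fold change of -0.78 (SE 0.18, adjusted p = 0.0491). It lies on chromosome 8 (71534255 to 71537456, minus strand) and is also high in plasmacytoid dendritic cells. Their marker Siglech, named after its values were seen, was at 5.26, 2.02 and 2.31 CPM in WT muscle. In KO muscle Siglech was at 1.78, 1.12 and 1.17 CPM (log2 fold change -1.22, adjusted p = 0.114 by edgeR). It did not pass in the main edgeR fit or by limma-voom, but did by DESeq2 and with no filter on low counts. Its highest WT value came from the library that stood apart in lymphocyte and neutrophil markers. The part of these cells in the level of Bst2 was not tested.

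Of the other 10 in this group, 6 did not overlap between genotypes and did not pass the test. Every KO library lay below every WT library in 12.0% of all tested genes. Ifi35 was at 18.0, 21.2 and 21.5 CPM in WT and 15.9, 15.4 and 15.4 CPM in KO muscle (log2 fold change -0.38, adjusted p = 0.078). Trim30a, of a family of ubiquitin ligases, was at 10.2, 8.23 and 12.5 CPM in WT and 6.36, 5.80 and 8.12 CPM in KO muscle (log2 fold change -0.61, adjusted p = 0.0994). Samd9l, which restricts poxvirus growth and cell proliferation, was at 16.1, 15.5 and 17.7 CPM in WT and 9.87, 10.7 and 14.5 CPM in KO muscle (log2 fold change -0.49, adjusted p = 0.0991). In these genes the genotypes were separated by a narrow gap between the highest KO and the lowest WT library. Xaf1, a partner of the apoptosis inhibitor XIAP, was at 12.7, 14.6 and 18.6 CPM in WT and 9.92, 10.9 and 12.1 CPM in KO muscle (log2 fold change -0.48, adjusted p = 0.11). Parp14, an ADP-ribosyltransferase, was at 11.4, 8.82 and 10.1 CPM in WT and 6.75, 7.80 and 8.50 CPM in KO muscle (log2 fold change -0.39, adjusted p = 0.164). Ifi44 had few reads, with 29, 28 and 26 counts in WT and 8, 3 and 24 in KO muscle, and its log2 fold change of -1.26 had a standard error of 0.47 (adjusted p = 0.165). Rtp4, a zinc-finger protein that binds viral RNA, was at 17.3, 16.6 and 19.7 CPM in WT and 10.6, 10.1 and 16.8 CPM in KO muscle, with KO 591 above WT 584. By edgeR, Rtp4 and Samd9l passed without KO 591 (adjusted p = 0.0266 and 0.0426), and Trim30a without WT 584 (0.041). The log2 fold changes of Mx1 and Mx2, dynamin-like GTPases that are defective in most laboratory mouse strains, were -0.79 and -0.42 with adjusted p-values of 0.385 and 0.616, and no library had more than 40 counts of either. Ifi27 was the 1 gene with a log2 fold change above 0. It was at 133, 174 and 119 CPM in WT and 125, 181 and 136 CPM in KO muscle, with KO 589 the highest and WT 595 the lowest, and its log2 fold change was 0.05 (95% interval -0.30 to 0.40, adjusted p = 0.897).

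The guanylate-binding proteins are GTPases that assemble on the vacuoles of intracellular microbes. None of the 5 passed in the main edgeR fit or by limma-voom, although 2 had an unadjusted p under 0.05 by edgeR. With no filter on low counts, Gbp3 and Gbp4 passed by edgeR (adjusted p = 0.00722 and 0.00592). In that fit 3.23% of all genes were called lower, against 1.37% in the main fit. The log2 fold change of Gbp4 was nearly the same in both, -0.916 and -0.913. In the main fit Gbp4 came nearest, at 3.45, 3.72 and 3.94 CPM in WT and 2.01, 1.56 and 2.28 CPM in KO muscle, with a log2 fold change of -0.91 (SE 0.22, adjusted p = 0.053 by edgeR). It was called lower by DESeq2 (adjusted p = 0.0365), with upper-quartile scaling (0.0499) and where all libraries needed 10 or more counts (0.048). Its gene model overlaps Gbp8 and Gbp9 on the same strand, and its reads may be shared with them. Gbp3 was at 22.8, 24.9 and 27.9 CPM in WT and 16.1, 17.2 and 22.4 CPM in KO muscle (log2 fold change -0.44, adjusted p = 0.105). In both, every KO library lay below every WT library. Gbp7, which also did not overlap, was at 13.1, 13.4 and 15.1 CPM in WT and 12.7, 11.8 and 12.5 CPM in KO muscle, with a log2 fold change of -0.17 (95% interval -0.40 to 0.07). Gbp2 was at 11.5, 12.6 and 12.4 CPM in WT and 10.1, 8.23 and 12.7 CPM in KO muscle (log2 fold change -0.23, 95% interval -0.56 to 0.10). KO 591 was the highest of all 6 libraries for Gbp2, and Gbp5 overlapped as well (log2 fold change -0.34, adjusted p = 0.399).

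The immunity-related GTPases act with the guanylate-binding proteins on such vacuoles, and 2 of 4 fell. Iigp1, an effector of this family, was at 23.3, 17.5 and 17.9 CPM in WT and 8.98, 8.73 and 13.6 CPM in KO muscle. The means were 19.6 ± 3.21 and 10.4 ± 2.75 CPM (SD, n = 3 each), a log2 fold change of -0.90 (SE 0.18, adjusted p = 0.0266 by edgeR). It lies on chromosome 18. Irgm2, a regulator of these effectors, was at 20.2, 18.3 and 16.5 CPM in WT and 13.1, 10.9 and 12.8 CPM in KO muscle, with a log2 fold change of -0.57 (SE 0.12, adjusted p = 0.0308). Here KO 591 was within the KO range and WT 583 the highest library. Irgm2 lies on chromosome 11 (58199618 to 58222782, plus strand) and overlaps Igtp on the same strand, and reads of the stretch they share may belong to Igtp. Igtp was at 8.89, 7.33 and 6.09 CPM in WT and 5.02, 5.61 and 5.44 CPM in KO muscle (log2 fold change -0.47, adjusted p = 0.151). For Irgm1 the genotypes overlapped, at 15.03, 15.2 and 17.6 CPM in WT and 14.3, 14.9 and 17.0 CPM in KO muscle (log2 fold change -0.05, 95% interval -0.30 to 0.20).

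Levels of different genes were compared per kilobase of gene model, as mean CPM per kilobase in WT muscle. Ifi27 (96.8) and Bst2 (86.5) were the highest, followed by Isg15 (20.9), Ifit3 (14.2) and Ifi35 (11.7). The lowest were Oas3 (0.0721), Ifi44 (0.247) and Mx2 (0.254). Of the 8 genes that fell, 7 were between 2.28 (Usp18) and 6.79 (Irf7) CPM per kilobase, and Bst2 was above them. Summed over all 39 genes without Ifi27 and Bst2, the level was 403, 393 and 481 CPM in WT and 264, 257 and 341 CPM in KO muscle.

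The rest of the interferon pathway was described from lists of 81 other genes. No interferon gene was tested: Ifnb1 had 0 counts in all 6 libraries, which allows up to 0.146 to 0.187 CPM per library, and Ifng had at most 2 counts. Of 10 genes of interferon receptors and Jak-Stat signalling, 9 were tested and none passed. By edgeR they had a median log2 fold change of -0.13, 3 had an unadjusted p under 0.05, and the receptor subunits Ifnar1, Ifnar2, Ifngr1 and Ifngr2 were at -0.05, 0.12, -0.29 and -0.08. Of 13 tested genes of interferon induction none passed (median -0.19, 1 with an unadjusted p under 0.05). Of 9 tested negative regulators 1 fell, Ptpn6, a phosphatase found mainly in blood cells, from 14.998 ± 2.20 to 8.80 ± 1.13 CPM (SD, n = 3 each; log2 fold change -0.76, adjusted p = 0.0204). DESeq2 and limma-voom gave the same counts of calls for these 3 lists. Without WT 583, WT 595, KO 588 or KO 589, Ptpn6 no longer passed.

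Among 36 tested interferon-stimulated genes outside the 39, 3 fell and none rose, against 1.37% and 0.896% of all tested genes. Their median log2 fold change was -0.47, and 35 of 36 were below 0. Ly6e, which restricts virus entry, was at 93.8, 101 and 98.8 CPM in WT and 60.0, 58.5 and 64.2 CPM in KO muscle (log2 fold change -0.68, standard error 0.08, adjusted p = 0.00247). Psmb9, an immunoproteasome subunit, was at 16.8, 15.4 and 16.7 CPM in WT and 9.09, 10.2 and 12.0 CPM in KO muscle (log2 fold change -0.64, adjusted p = 0.0241). Ifi47, another immunity-related GTPase, was at 6.14, 7.60 and 9.50 CPM in WT and 4.46, 3.37 and 4.62 CPM in KO muscle (log2 fold change -0.90, adjusted p = 0.0405). In all 3 every KO library lay below every WT library, as in 17 of the 36, against 12.0% of all tested genes. DESeq2 called 10 of the 36 (2.71% of all genes were called lower) and limma-voom 2 (1.23%). With single libraries left out between 1 and 8 were called, where 0.324% to 2.49% of all genes were called lower. The 8 were called without WT 584, where this share was 2.49%. Ly6e was called in each of the 6 fits.

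Summed markers of immune cell lists lay lower in every KO than in every WT library, except those of neutrophils, which overlapped. The sums of erythrocyte genes and of fibro-adipogenic markers, given below, were also lower in every KO library. Among all tested genes, 1.37% were called lower by edgeR. Of 8 pan-leukocyte markers, 8 had a log2 fold change below 0 and 2 fell, and their summed level was 157 to 229.5 CPM in WT and 108 to 131 CPM in KO muscle. Of 10 macrophage markers, 10 were below 0 and 5 fell (Adgre1, Csf1r, C1qa, C1qb and C1qc), and their sums did not overlap between genotypes. DESeq2 called 9 of the 10 macrophage and 3 of the 8 leukocyte markers (2.71% of all genes). With edgeR, the macrophage count was 0 without WT 583, 7 without WT 584, 3 without WT 595, 1 without KO 588, 1 without KO 589 and 5 without KO 591, and the leukocyte count was 0, 5, 0, 0, 0 and 1 in the same order. The shares of all genes called lower in these fits were 0.324%, 2.49%, 0.364%, 0.628%, 0.492% and 0.636%. Of 10 dendritic cell and MHC class II genes, 8 were tested, 7 were below 0 and 4 fell (Cd74, H2-Aa, H2-Ab1 and H2-Eb1). These 4 belong to the MHC class II part of the list, and the other 4 tested did not pass. The 10 genes summed to 246 to 307 CPM in WT and 103 to 135 CPM in KO muscle. None of the markers of these 3 lists was at 0 in all libraries. Only 2 of 10 T and NK cell, 3 of 8 B cell and 4 of 10 neutrophil markers had enough counts to be tested, and of these 1 fell, Ighm. Erythrocyte genes summed to 7216, 4748 and 10390 CPM in WT and 4399, 4166 and 4536 CPM in KO muscle, with WT 595 the highest, as for 27 of the interferon-stimulated genes. The same 4 MHC class II genes passed with each library left out in turn. Without WT 583, the median log2 fold changes of the leukocyte and macrophage markers were -0.50 and -0.54. The median of the interferon-stimulated genes without this library was -0.62, against -0.57 with it. The part of these cells in the lower interferon-stimulated genes was not tested.

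The order of the libraries differed between some of these lists. KO 591 had the highest sum of the KO libraries for the interferon-stimulated genes, at 83.3% of the WT mean, and also for leukocyte (69.3%), macrophage (75.9%) and MHC class II genes (48.2%). Within WT, WT 583 was the highest for leukocyte, T and NK cell, B cell, neutrophil and MHC class II genes. WT 595 was the highest for the interferon-stimulated genes (106.8% of the WT mean), for erythrocyte genes (139.4%) and for macrophage markers (102.9%, against 102.1% in WT 583 and 95.1% in WT 584). Without Ifi27 and Bst2, the interferon-stimulated genes summed to 403, 393 and 481 CPM in WT and 264, 257 and 341 CPM in KO muscle. The macrophage sums had the same order of libraries, at 864.5, 805 and 871 CPM in WT and 584, 524 and 643 CPM in KO muscle. Endothelial markers, of which 1 of 10 fell (Cdh5, not without WT 583), summed to 238 to 265 CPM in WT and 192 to 247 CPM in KO muscle, so that the genotypes overlapped. Of 6 markers of fibro-adipogenic cells none passed in the main edgeR fit or by limma-voom and 2 by DESeq2, and 2 had an unadjusted p under 0.05 by edgeR, with sums of 8653 to 10160 CPM in WT and 7283 to 8512 CPM in KO muscle. Of the 11 tested muscle fibre genes 3 rose (Ckm, Myh1 and Actn3), against 0.896% of all tested genes, and none rose by edgeR without WT 583.

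**Figure D4:**
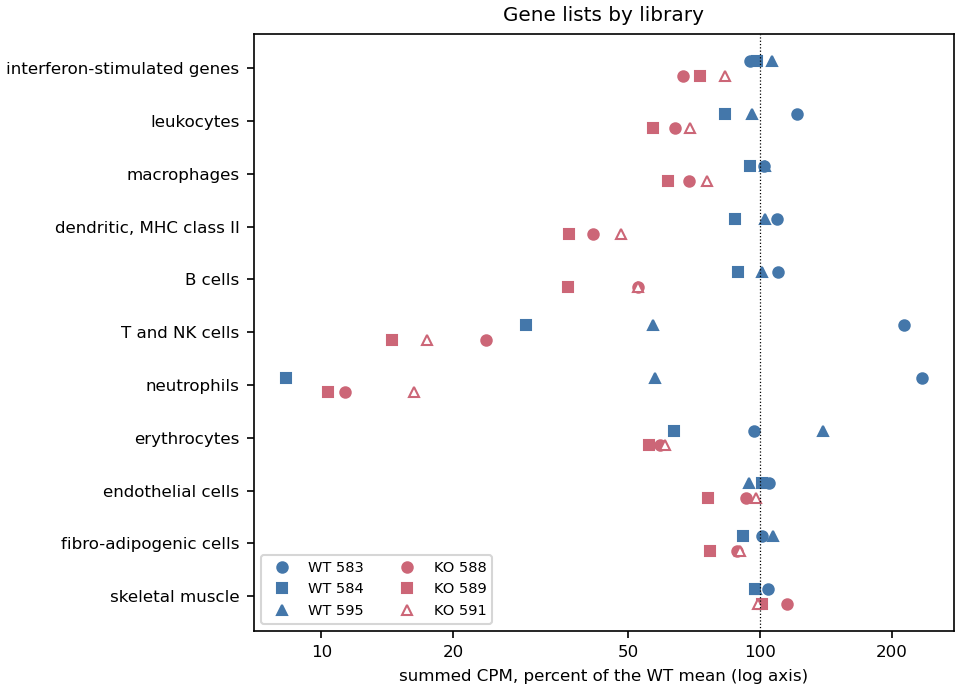
Summed CPM of each gene list per library as a percentage of the WT mean (log axis), with WT libraries in blue and KO libraries in red. The KO libraries lie at 66.8%, 73.1% and 83.3% for the 39 interferon-stimulated genes, at 41.7%, 36.8% and 48.2% for dendritic cell and MHC class II genes, and the WT libraries spread widely for T and NK cells and neutrophils.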

How the data were processed

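RNA-seq had been performed on muscle RNA of 3 WT and 3 KO mice, 1 library each, and the authors deposited 1 table of raw read counts per gene. The study's methods name alignment with HISAT2 to mm10, whereas the submitters' processing notes name Bowtie 0.12.2 and mm8; the coordinates in the table match GRCm38 (mm10). The labels name an unstranded library kit and the methods a stranded one, and the counting tool, annotation and strand setting are not given in the sources used here, so that overlapping and near-identical genes are uncertain. Libraries held 16176591 to 20123767 counts. The 448 unnamed regions of the table (0.114 to 0.128% of counts) were kept.

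Genes were filtered with filterByExpr (minimum count 10, minimum total 15), which left 15075, scaled by TMM and tested by quasi-likelihood in edgeR, with p-values adjusted by Benjamini-Hochberg over all 15075 genes and a threshold of 0.05. CPM are relative to the scaled library size, log2 CPM use a prior count of 2, and SE is the size of the log2 fold change over the root of F. The common biological coefficient of variation was 12.1%. For single values, the permutation test was exact and two-sided. The limit for a count of 0 is 3 counts and covers counting error only. R 4.3.3, edgeR 4.0.16, limma 3.58.1 and DESeq2 1.42.0 were used, and the scripts were tested on simulated data. The study's methods name DESeq2, which was run as an alternative together with limma-voom, other scalings and filters, a minimum fold and leaving out each library.

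Promoters are 250 bases before RefSeq gene starts (GRCm38.p6), with entries for 28 of 39 genes. The naming rule covered all 39 members (values per library for those called, those without overlap and 9 others) and, of each pathway list, up to 5 called genes plus Ifnar1, Ifnar2, Ifngr1, Ifngr2, Ifnb1 and Ifng. Cell markers named fall outside it, and some genes it covers are not reported here. The members and lists were chosen with earlier results of these data known.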

Additional observations from a re-analysis of the deposited data

How the results depend on the processing

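The share of all genes called lower is given in brackets after each count. The 8 interferon-stimulated genes called lower (1.37%) became 12 with DESeq2 (2.71%) and 7 with limma-voom (1.23%). They became 8 with RLE scaling (1.38%) and 9 with upper-quartile scaling (1.59%). With at least 10 counts in every library 9 were called (1.52%), and without the filter on low counts 25 of 39 (3.23%). Where a change of 1 log2 unit or more was also required, 4 remained, Rsad2, Irf7, Oas1a and Usp18. The share of all genes under this last rule was not determined. With each library left out in turn, the count ran from 0 to 9 and the median log2 fold change from -0.79 to -0.43. Of all genes, 0.324% to 2.49% were called lower in these fits. Fits that left out a library were run with edgeR only. The count was 0 without KO 588, where 20 genes had an unadjusted p under 0.05. None was called higher under any of these settings. The log2 fold change of Ifi27 was -0.06 without WT 595 and -0.12 without KO 589 (0.23 without WT 584), and that of Irgm1 was 0.025 without WT 595 and 0.0004 without KO 588 (-0.13 without KO 591). The cause was not tested. No paired analysis was possible because the library numbers of the genotypes do not overlap. Counts of Oas3, Mx1, Mx2 and Ifi44 limit what could be seen for these genes.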
